A study of Mus musculus with 10 samples.

Results

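The Gimap genes encode GTPases of the immunity-associated protein family, and all 8 members of the family examined here (Gimap1, Gimap3, Gimap4, Gimap5, Gimap6, Gimap7, Gimap8 and Gimap9) had probe sets on the array. They were represented by 8 of 18193 genes and by 11 of 34945 probe sets with a single gene symbol, and the brightest probe set of a gene, by its mean across the 10 arrays, stood for it. The family was picked with its values already known, among them that Gimap4 stood near the top of the rises over the vector control with both constructs. The levels and differences are therefore given as a description, with no p-value for the members.

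Lineage-negative, Sca1-positive, cKit-positive bone marrow cells of C57BL/6 mice aged 5 to 6 weeks carried a MigR1 retrovirus that expresses green fluorescent protein. The control virus held no further gene (GFP, 3 arrays). The others also encoded the leukaemia fusion AML1/ETO (3 arrays) or a form of it carrying W692A (called W692A here, 4 arrays). AML1/ETO joins the DNA-binding domain of RUNX1 to ETO, and the W692A substitution alters the MYND domain of ETO, which binds the corepressors SMRT and N-CoR. Cells of all groups grew in serum with interleukin-3, interleukin-6 and stem cell factor, were transduced 2 times 24 hours apart, and 25000 live green fluorescent cells were sorted 48 hours after the second round. RNA (50 ng) was amplified in 2 rounds, each sample came from a transduction of its own, and no source used here says if separate mice were used, so the spread between arrays may be partly technical.

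GIMAP proteins share a GTP-binding domain of the AIG1 type and mostly sit on the membranes of organelles. They are best known from lymphocytes, where several of them govern how long T and B cells survive, and Gimap5 is also needed to keep blood stem cells in mice. The mouse genes lie side by side in a single cluster.

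Values are log2 intensities, so a difference of 1 is a doubling. A background bound of 2.04 was set by the brightest value, on any array, of 27 control probe sets for bacterial RNAs that the labelled samples should lack. If the dimmer group had an array below the bound, the bound took the place of that reading and the fold appears with "at least". A gene counted as called if limma gave it a Benjamini-Hochberg adjusted p-value under 0.05 among all 18193 genes. Correlations over all probe sets were 0.990 to 0.993 within groups and 0.962 to 0.985 between them. Signal at the 3′ end of Gapdh exceeded that at its 5′ end, a gap that grows as RNA is degraded or amplified from short templates, by 4.93 ± 0.0889 (log2, SD) on the 3 GFP arrays. On the 3 AML1/ETO arrays this gap was 4.38 ± 0.573, and on the 4 W692A arrays it was 4.01 ± 0.168. Labelled spike-in controls averaged 8.58 ± 0.382, 7.99 ± 0.324 and 8.39 ± 0.323 in the same order. Kit, a gene of the sort, lay at or below the bound on every array (0.95 to 1.97), while Sca1's own gene Ly6a was not analysed here. The cells had been selected as cKit-positive, so a reading at or below the bound is not taken to show that RNA was absent.

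The fusion keeps the RUNX1 DNA-binding domain, so the 250 bases before the RefSeq start of each member (assembly GRCm38.p6) were searched on both strands for the RUNX letters TGTGGT and TGCGGT. The former was found before Gimap4, Gimap1 and Gimap7, and the latter before Gimap9, so that 4 of the 8 genes, and 4 of their 9 promoters, held either. Of all 32851 promoters of this length, 14% held TGTGGT, 5.1% TGCGGT and 18.6% either. These 4 promoters are printed 5′ to 3′ with the RUNX letters, read on either strand, in capitals, followed by that of Gimap8, the member called between the constructs.
Gimap4 (chr6:48684328-48684577, plus strand): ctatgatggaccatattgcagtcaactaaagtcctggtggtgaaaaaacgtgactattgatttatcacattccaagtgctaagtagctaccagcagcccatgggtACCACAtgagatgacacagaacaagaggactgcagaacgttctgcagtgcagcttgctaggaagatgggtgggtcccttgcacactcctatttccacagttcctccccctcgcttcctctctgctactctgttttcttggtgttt
Gimap1 (chr6:48738797-48739046, plus strand): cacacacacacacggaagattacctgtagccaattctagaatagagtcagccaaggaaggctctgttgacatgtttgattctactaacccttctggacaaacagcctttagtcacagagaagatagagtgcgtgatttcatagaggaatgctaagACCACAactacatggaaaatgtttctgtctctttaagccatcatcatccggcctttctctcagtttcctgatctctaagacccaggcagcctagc
Gimap7 (chr6:48718371-48718620, plus strand): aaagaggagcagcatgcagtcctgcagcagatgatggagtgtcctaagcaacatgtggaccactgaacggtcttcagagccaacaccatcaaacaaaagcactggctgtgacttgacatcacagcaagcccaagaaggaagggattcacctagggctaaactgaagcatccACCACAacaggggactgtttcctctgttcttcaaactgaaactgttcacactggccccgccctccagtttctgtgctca
Gimap9 (chr6:48675885-48676134, plus strand): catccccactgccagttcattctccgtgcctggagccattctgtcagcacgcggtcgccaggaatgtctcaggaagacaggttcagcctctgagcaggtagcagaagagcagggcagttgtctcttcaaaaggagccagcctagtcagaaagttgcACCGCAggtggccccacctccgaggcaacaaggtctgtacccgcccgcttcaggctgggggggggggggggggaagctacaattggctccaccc
Gimap8 (chr6:48647111-48647360, plus strand): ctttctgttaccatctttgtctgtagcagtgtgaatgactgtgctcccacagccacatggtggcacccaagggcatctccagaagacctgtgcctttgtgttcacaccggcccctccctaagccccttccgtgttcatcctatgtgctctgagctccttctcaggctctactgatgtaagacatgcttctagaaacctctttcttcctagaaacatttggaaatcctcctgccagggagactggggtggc
The letters began 145 bases before the start of Gimap4, 95 before Gimap1, 79 before Gimap7 and 94 before Gimap9. RefSeq lists 2 starts for Gimap8, neither of which has RUNX letters in this window, and the more downstream one is shown. The ETS letters AGGAAG were before 7 of the 8 genes, all but Gimap6. By promoter this was 7 of 9, against 29.5% of all promoters. The GATA letters AGATAA (9.99% of all promoters) and the interferon-stimulated response element (2.98%) were before none of the 8. A match is a description of letters, not a binding site.

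The first comparison asks how the family differed between AML1/ETO and the empty vector. Gimap4, Gimap8, Gimap9, Gimap6, Gimap7 and Gimap1 were called higher with AML1/ETO and no member was called lower. Gimap3 and Gimap5 stayed at or below background in both groups and were not called. Gimap4 had the largest difference of the members, and the other called members were between at least 1.65-fold and 6.25-fold higher. Of all genes, 12.9% were called higher in this comparison, and since the family was picked on it, nothing is read from its 6 of 8. In either direction 28.6% were called.

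Gimap4, whose loss in mice delays the death of T cells, read 1.45, 0.88 and 1.24 on the GFP arrays. On the AML1/ETO arrays it read 8.34, 8.43 and 7.65. Every GFP array was below the bound and every AML1/ETO array was more than 5 log2 units above it. With the GFP readings set to the bound the difference was 6.10 log2 units, at least 68.6-fold. A further Gimap4 probe set, described with the other probe sets, was above the bound on the GFP arrays and gave a smaller, measured fold.

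Gimap8, a member with several GTP-binding domains in its protein, was already well above the bound in the vector control at 5.26, 4.95 and 4.61. With AML1/ETO it read 7.82, 7.59 and 7.34, so that the groups were far apart. The difference of 2.64 ± 0.173 (log2, SE) made it 6.25-fold higher.

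Gimap6, whose human protein binds the autophagy protein GABARAPL2, had GFP values of 3.13, 2.73 and 2.71. Its AML1/ETO values were 5.47, 4.70 and 4.37, the widest spread of any member in that group. The difference was 1.99 ± 0.232 (log2, SE), or 3.96-fold. Gimap9 went from 3.12, 3.36 and 3.33 to 5.64, 5.12 and 5.02, also 3.96-fold (1.99 ± 0.228, log2, SE).

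Gimap1, needed in mice for mature T and B cells, had the smallest difference of the called members in the readings as deposited. It read 4.00, 4.22 and 4.24 with GFP and 5.22, 4.97 and 4.79 with AML1/ETO, without overlap (0.84 ± 0.143, log2, SE, 1.79-fold). Gimap7, a GTPase that is active as a dimer in its human form, crossed the bound. It read 1.65, 1.24 and 1.49 with GFP and 2.93, 2.84 and 2.52 with AML1/ETO (at least 1.65-fold). With its GFP readings set to the bound the Gimap7 difference was 0.72, below that of Gimap1.

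Gimap3 and Gimap5 are the closest relatives of each other in the family and act in the survival of T cells in mice. Gimap5 read 1.45 to 1.70 with GFP, 1.47 to 1.99 with AML1/ETO and 1.64 to 1.85 with W692A, all below the bound. Gimap3 read 0.93 to 1.32 with GFP, 1.58 to 1.82 with AML1/ETO and 1.14 to 2.10 with W692A, where replicate 2 alone was above the bound. No fold is given for either, and such values cannot show whether the genes changed.

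**Figure D1:**
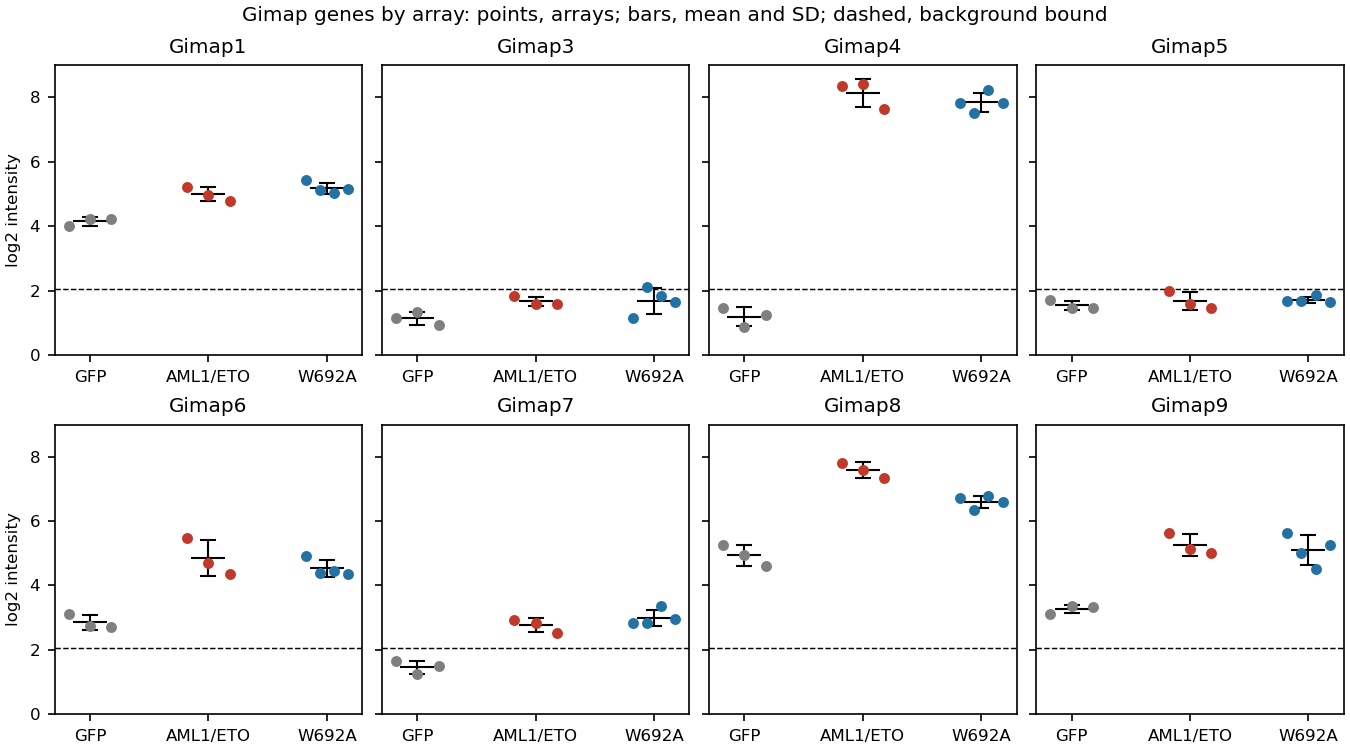
Log2 intensity (y axis) of each Gimap gene on every array (points) by group (x axis), with the mean and SD of each group (bars) and the background bound of 2.04 (dashed line). On its main probe set Gimap4 lay below the bound on all GFP arrays and at 7.52 or more on all arrays of both constructs, and for Gimap8 the W692A arrays lay between the other groups.

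The second comparison sets the W692A form against the same 3 GFP arrays. Gimap1, Gimap4, Gimap6, Gimap7, Gimap8 and Gimap9 were again the members called higher, and no member was called lower. Across all genes 5.45% were called higher and 9.07% lower with W692A, and 4.14% were called higher in both comparisons, which share their control arrays. The median log2 difference of the 8 members was 1.64 with AML1/ETO and 1.60 with W692A, against -0.02 and 0.01 over all genes. With readings below the bound set to the bound the members' medians were 1.41 and 1.34, against 0.00 over all genes in both. Since the family was picked with these values known, nothing is read from its count or its medians beside those of all genes.

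Gimap4 read 7.82, 7.52, 8.23 and 7.82 with W692A, all above every GFP array. With the GFP readings set to the bound its difference was 5.81 log2 units, at least 55.9-fold. Gimap9 read 5.64, 5.02, 4.52 and 5.24, which was 3.56-fold above GFP (1.83 ± 0.213). Gimap6 read 4.92, 4.40, 4.45 and 4.36, a 3.19-fold difference (1.67 ± 0.217).

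Gimap8 read 6.70, 6.34, 6.76 and 6.59 with W692A, 3.16-fold above GFP (1.66 ± 0.162, log2, SE). Gimap1 read 5.43, 5.12, 5.02 and 5.16, 2.04-fold above GFP (1.03 ± 0.134). Gimap7 read 2.83, 2.82, 3.36 and 2.95, at least 1.93-fold above GFP. For all 6 called members each W692A array exceeded each GFP array, as did 9.85% of all genes. In the comparison of AML1/ETO with GFP 7 members were apart in this way, Gimap3 being the further one, against 18.1% of all genes. Nothing is read from these counts either, as the family was picked with its values known.

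The Gapdh gap was smaller on each W692A array (3.81 to 4.17) than on any GFP array (4.83 to 4.99). With that gap as a covariate the calls of Gimap1 (log2 difference 0.83) and Gimap6 (1.02) against GFP were lost, and 4 members remained called, namely Gimap4, Gimap7, Gimap8 (1.23) and Gimap9 (1.71). In that fit the number of all genes called fell from 2642 to 506. With AML1/ETO the same 6 members were called with the covariate. Within groups the gap varied mostly through AML1/ETO replicate 3 (5.04, against 4.08 and 4.01 on replicates 1 and 2). The slope of the covariate therefore rests largely on that array. GFP and W692A did not overlap in the gap, so this fit cannot separate the gap from the construct.

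The third comparison asks whether the substitution changed the effect of the fusion on the family. It uses the same construct arrays as the comparisons above, and the family was picked from values of all 3 groups, so the differences are again given as a description with no p-value for the members. Gimap8 was the 1 member called. It was 1.98-fold lower with W692A than with AML1/ETO, at -0.98 ± 0.162 (log2, SE, n = 4 and 3), and every W692A array (highest 6.76) was below every AML1/ETO array (lowest 7.34), as for 13.5% of all genes. Among all genes 11.1% were called lower and 9.61% higher, and nothing is read from 1 of 8. Over the 21 other processing settings the Gimap8 difference ran from -1.16 to -0.86.

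The other 7 members were not called between the constructs, and their groups overlapped. Gimap4 was lower by 0.29 with W692A, with a 95% interval of the log2 difference from -0.73 to 0.14. On the other Gimap4 probe set the difference was -0.40, with an interval from -0.79 to -0.02 that excludes 0, though it was not called. For Gimap6 the interval ran from -0.78 to 0.15 and for Gimap9 from -0.61 to 0.30. Gimap1 and Gimap7 had intervals from -0.10 to 0.47 and from -0.10 to 0.56. On the main probe sets reductions of Gimap6 and Gimap4 with W692A by up to 0.78 and 0.73 log2 units are therefore within the error. These results do not show equal levels. With the Gapdh gap as a covariate Gimap4 was also called lower with W692A (-0.61). Without AML1/ETO replicate 3, the array on which the slope of that covariate largely rests, the Gimap4 value was -0.54, not called. Whether the construct difference of Gimap8 was larger than that of the other members was not tested.

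**Figure D2:**
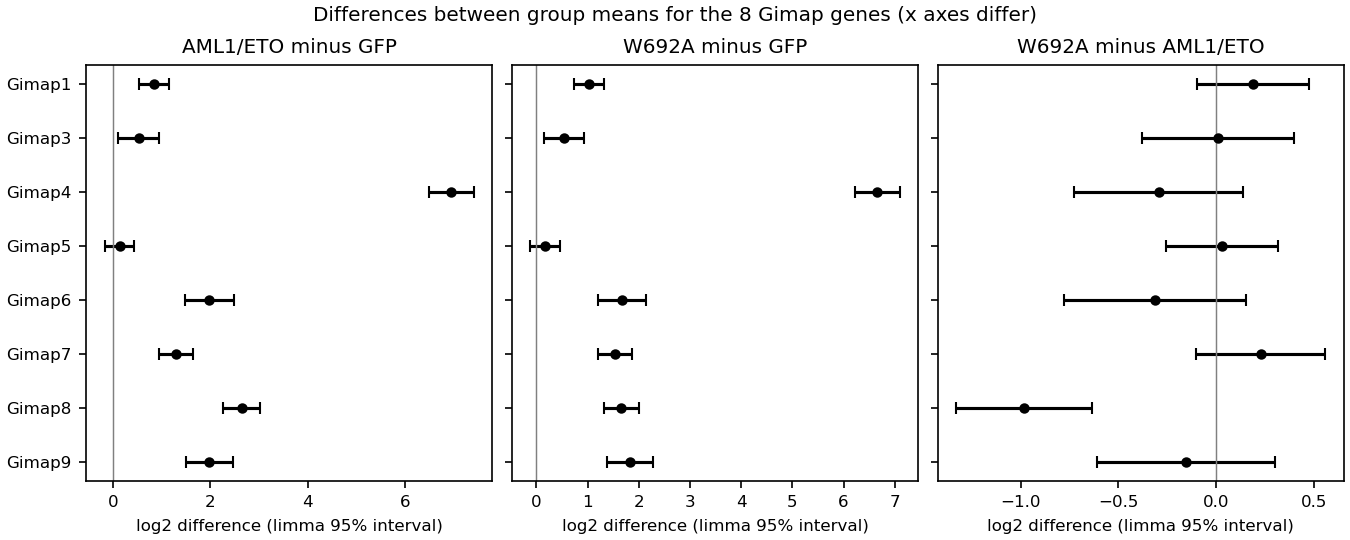
Log2 difference between group means (x axis, a separate scale in each panel) for the 8 Gimap genes (y axis), with 95% intervals from limma. Readings are as deposited, so that for Gimap3, Gimap4, Gimap5 and Gimap7 the differences from GFP rest on GFP readings below the bound. The intervals of W692A minus AML1/ETO include 0 for 7 members, and that of Gimap8 runs from -1.33 to -0.64.

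Within the AML1/ETO group replicate 3 was the lowest array for all 8 members, of which Gimap3 and Gimap5 lay below the bound on all 3 arrays. Replicate 3 was the lowest for 29.9% of all genes and for 37.1% of the genes called higher with AML1/ETO. That array had a Gapdh gap of 5.04, where replicates 1 and 2 had 4.08 and 4.01, and the part of this in the members' values was not tested. Without it the differences of Gimap8 and Gimap6 from GFP were larger, at 2.77 for Gimap8 and 2.22 for Gimap6. Replicate 1 was the highest array for 7 of the 8 members. Without replicate 1 these differences were smaller, at 2.53 for Gimap8 and 1.67 for Gimap6. In the W692A group replicate 3 was the highest for Gimap4, Gimap5, Gimap7 and Gimap8 and the lowest for Gimap1 and Gimap9.

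Gimap4, Gimap6 and Gimap7 each had a further probe set. The other Gimap4 probe set lay above the bound in the vector control at 2.92, 3.05 and 2.77, and read 7.68, 7.76 and 6.89 with AML1/ETO and 6.95, 6.89, 7.27 and 7.06 with W692A. It gave a 23.1-fold difference with AML1/ETO (4.53 ± 0.193, log2, SE) and a 17.5-fold difference with W692A (4.13 ± 0.180). These folds are below the lower limits of 68.6-fold and 55.9-fold from the main probe set, so the direction was shared but the size of the Gimap4 change depended on the probe set. The main one carries the suffix that marks probes able to match more than 1 transcript.

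For Gimap6 the dimmer probe set read 0.30 to 0.82 with GFP and 1.21 to 2.44 with AML1/ETO, with a single array above the bound. It was called higher with AML1/ETO (1.24 ± 0.234, log2, SE) and with W692A (0.90 ± 0.219). Both calls rest on group means below the bound, where values cannot show a change. For Gimap7 the other probe set stayed between 0.33 and 1.10 on all arrays, below the bound, and was called in neither comparison. The call of Gimap7 thus rests on a single probe set. Those of Gimap1, Gimap8 and Gimap9 do too, as these genes have only a single probe set each.

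**Figure D3:**
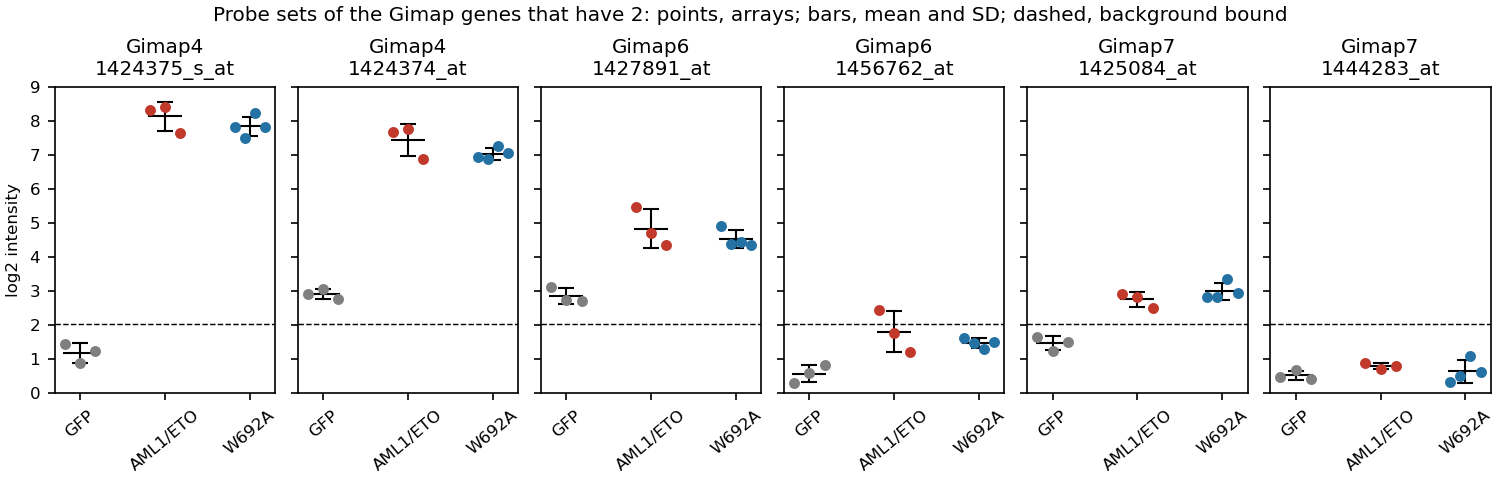
Log2 intensity (y axis) on every array (points) by group (x axis) for both probe sets of Gimap4, Gimap6 and Gimap7, with mean and SD (bars) and the background bound (dashed line). The probe sets of Gimap4 differ at the GFP level, and the further ones of Gimap6 and Gimap7 lie mostly or wholly below the bound.

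The genes on either side of the cluster on chromosome 6 were examined next, and were chosen by position alone. Within 300 kb of the ends of the cluster 16 further genes were measured. With AML1/ETO 2 rose, 4 fell and 10 did not pass, against 12.9% and 15.8% of all genes. Their median log2 difference was -0.06, against -0.02 over all genes. The Gimap genes were picked with their values known, so their median is not set beside it. The nearest measured gene on one side, AI854703, did not pass and lay below the bound on all arrays. On the other side the nearest measured genes, Tmem176b and Tmem176a, which encode membrane proteins of myeloid and dendritic cells, fell.

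Tmem176a read 8.97, 8.72 and 8.94 with GFP, 7.61, 7.93 and 7.47 with AML1/ETO and 8.03, 7.76, 8.35 and 8.19 with W692A. It was 1.21 log2 units lower with AML1/ETO (95% interval of the difference -1.56 to -0.87). Both constructs lay wholly below GFP. Tmem176b was 1.02 log2 units lower with AML1/ETO and rose by 0.64 between AML1/ETO and W692A (limma adjusted p = 0.00187). Zfp467, a zinc finger gene on the far side of Gimap8, rose 2.86-fold with AML1/ETO and was 1.98-fold lower with W692A than with AML1/ETO (limma adjusted p = 4.12e-05). With AML1/ETO, Repin1, another zinc finger gene, fell 1.43-fold, Rarres2 fell within the background range, and Aoc1 rose to values around the bound (1.84 to 2.26).

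With W692A 1 of the 16 neighbours rose (Zfp467, 1.45-fold) and 2 fell, Tmem176a and Krba1. Only 1 fell without GFP replicate 1, GFP replicate 3 or W692A replicate 4 in turn. With the Gapdh covariate 0 rose and 1 fell with W692A, and 2 rose and 2 fell with AML1/ETO.

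**Figure D4:**
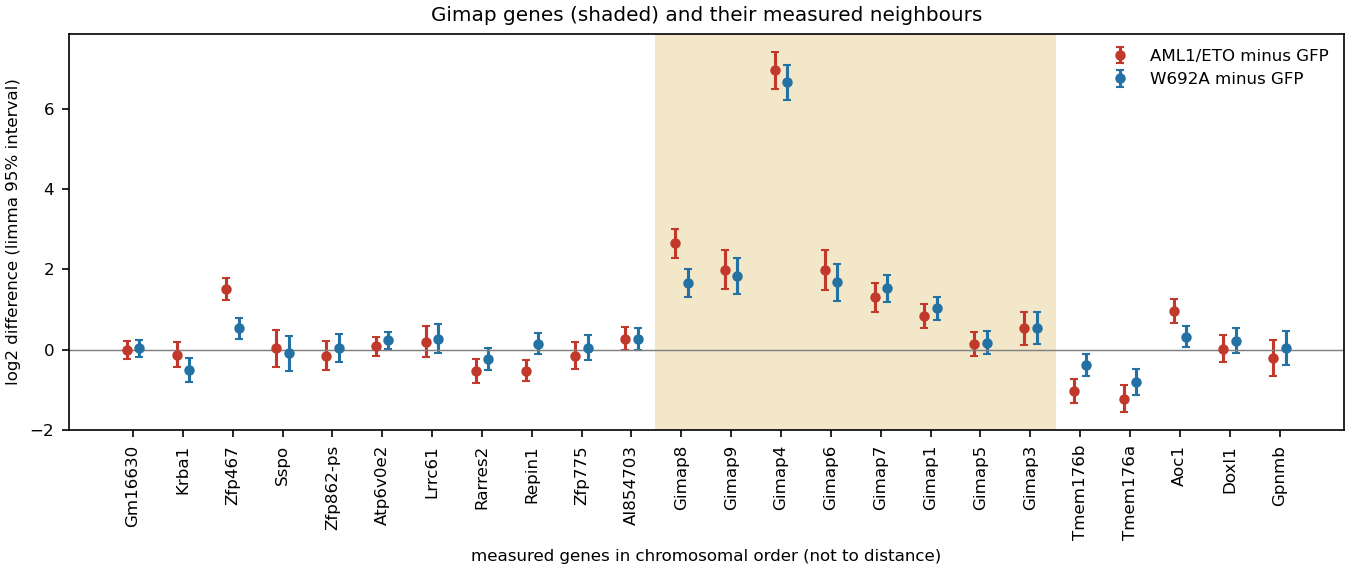
Log2 difference from GFP with 95% limma intervals (y axis) for AML1/ETO (red) and W692A (blue), for the measured genes in chromosomal order (x axis, not to distance), with the Gimap genes shaded. Gimap8, Gimap9, Gimap4, Gimap6, Gimap7 and Gimap1 lie above 0, and outside the block the called genes with AML1/ETO are Zfp467 and Aoc1 above 0 and Rarres2, Repin1, Tmem176b and Tmem176a below it, and with W692A Zfp467 above and Krba1 and Tmem176a below.

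Markers of cell types known to express Gimap genes were read on the same arrays. Counts in the lists that follow stand against 12.9% of all genes called higher and 15.8% lower with AML1/ETO. With W692A those shares were 5.45% and 9.07%. Of 17 measured T and NK cell genes 12 lay at or below the bound on every array, among them Cd3e, Cd3d, Cd3g, Cd4 and Cd8a, and the mean over the list was 2.05 to 2.13 with GFP, 1.88 on all AML1/ETO arrays and 1.83 to 1.89 with W692A. With AML1/ETO 4 fell (Thy1, Nkg7, Lat and Cd5) and 1 rose (Gata3, not called without GFP replicate 1, 2 or 3 or without AML1/ETO replicate 2 or 3). Gata3 and Cd5 lay below the bound on every array, where values cannot show a change. Thy1, a surface protein of T cells and some progenitors, was 4.29-fold lower and Nkg7, a granule protein of killer cells, 2.63-fold lower. With W692A 5 fell and 0 rose, 3 falling without GFP replicate 2.

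Of 11 B cell genes 8 lay at or below the bound on every array, including Cd79a, Ms4a1 and Pax5, and the list averaged 1.53 to 1.66 with GFP, 1.41 to 1.66 with AML1/ETO and 1.34 to 1.47 with W692A. Blnk, an adaptor of the B cell receptor, rose 2.18-fold with AML1/ETO and Vpreb1 fell from values around the bound (1.66 to 2.28) to values below it. With W692A Vpreb1 fell and no B cell gene rose. Other genes of these lists were above the bound on every array, among them Cd79b, a chain of the B cell receptor (5.13 to 6.10), Thy1 (5.05 to 7.68), Il7r, the interleukin-7 receptor (3.93 to 6.27), Nkg7 (4.92 to 6.58), Zap70, a T cell receptor kinase (3.12 to 3.99), and Blnk (3.09 to 5.37). Cd79b and Zap70 were called in neither comparison with GFP. Cd79b, Il7r and Zap70 are named here for these levels, after they were seen. The part of lymphoid cells in the Gimap levels was not tested.

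Endothelial genes averaged 2.06 to 2.07 with GFP, 2.89 to 3.02 with AML1/ETO and 2.32 to 2.37 with W692A. Of 17 measured 9 rose and 1 fell with AML1/ETO, and 7 rose and 2 fell with W692A (4 rose without GFP replicate 2). Eng, a TGF-beta co-receptor, rose 8.88-fold, Egfl7 4.13-fold, Tek, the angiopoietin receptor, at least 4.89-fold and Sox17 at least 11.4-fold with AML1/ETO, while Vwf fell at least 1.89-fold, and the calls of Emcn, Pecam1 and Kdr, among the 9, rest on group means below the bound. With W692A the calls of Emcn and Robo4, among the 7, rest on such means. Pecam1, Cdh5, Cldn5 and Tie1 were at or below the bound on every array. Sox17 lay below the bound with W692A (0.49 to 0.83). Of the 7 that rose with W692A, Tek rose at least 2.72-fold, Eng 3.46-fold and Egfl7 3.05-fold, while Vwf was among the 2 that fell. In bulk samples more cells of a type and more RNA per cell cannot be told apart, and the part of such cells in the Gimap levels was not tested.

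Stem and multipotent progenitor genes averaged 4.07 to 4.22 with GFP, 5.25 to 5.31 with AML1/ETO and 4.53 to 4.79 with W692A. Of 14 measured 9 rose and 1 fell with AML1/ETO, and 7 rose and 2 fell with W692A (1 fell without GFP replicate 2, GFP replicate 3 or W692A replicate 2). Procr rose 22.0-fold and Hlf 19.6-fold with AML1/ETO, and Slamf1, Cd34, Mecom and Gata2 rose by 2.19-fold to 3.25-fold. Flt3, above the bound on every array, was the gene that fell with AML1/ETO (1.95-fold), and it was 1.94-fold lower with W692A. Of all genes 12.9% were called higher with AML1/ETO and 5.45% with W692A. The calls of Kit and Fgd5, among the 9 higher with AML1/ETO, and of Ctnnal1, among the 2 lower with W692A, rest on values below the bound. With the Gapdh covariate 4 stem genes and 4 endothelial genes rose with W692A. Between the constructs 8 of the 14 were called lower with W692A, against 11.1% of all genes. The call of Kit, among these 8, again rests on values below the bound. Of the Gimap genes 1 of 8 was called lower, and nothing is read from that count. A test of the difference between these lists was not run.

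Genes of proteins reported to act with GIMAP proteins were read from a list of 12, of which 11 were measured. With AML1/ETO 5 rose, 1 fell and 5 did not pass. Gabarapl2, the partner of human GIMAP6, read 4.40, 4.64 and 4.63 with GFP, 5.76, 5.56 and 5.65 with AML1/ETO and 5.13, 5.10, 5.08 and 5.18 with W692A. The groups were apart, with W692A in the middle, and Gabarapl2 rose 2.14-fold with AML1/ETO and was 1.45-fold lower with W692A than with AML1/ETO (limma adjusted p = 0.00209). Its relative Gabarap rose 2.38-fold with AML1/ETO and Map1lc3b, another autophagy gene, 1.59-fold.

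Bcl2, the inhibitor of cell death that binds GIMAP5 in mouse T cells, fell while its relative Bcl2l1 rose. Bcl2 read 5.47, 5.62 and 5.23 with GFP, 3.50, 3.21 and 3.69 with AML1/ETO and 3.48, 3.32, 3.26 and 3.47 with W692A. It was 3.93-fold lower with AML1/ETO and 4.16-fold lower with W692A. Bcl2l1 rose 1.51-fold with AML1/ETO and 1.31-fold with W692A. With W692A 4 partner genes rose and 1 fell. When each array was left out in turn only 1 to 3 rose. It was 1 without GFP replicate 1 and 2 without AML1/ETO replicate 2 or W692A replicate 2, 3 or 4. With the Gapdh covariate 0 rose.

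The genes with the array pattern most like each member were found by the root mean square difference over the 10 arrays, after each gene was centred on its own mean, among the 8820 genes that exceeded the bound in at least 1 group mean. For Gimap4 the nearest genes outside the family were Fbp1 (0.769 log2 units), Hbb-y (0.982), Ctla2b (1.19), Cd200r4 (1.23) and Cxcl3 (1.23), and the nearest member, Gimap8, was at 2.18. Fbp1 encodes fructose bisphosphatase, Hbb-y an embryonic globin and Cxcl3 a chemokine. Gimap6 and Gimap9 were each other's nearest members at 0.284. The nearest gene outside the family was Nrip1 for Gimap6 (0.205), Clec4e for Gimap9 (0.296), Exoc3l2 for Gimap7 (0.169), Icos for Gimap8 (0.212) and Vegfa for Gimap1 (0.136). For Gimap1, Ric1 (0.159), Snord104 (0.160), Sugt1 (0.165) and Runx1 (0.166) came next. Runx1 is the gene of the fusion's own DNA-binding part, and whether its probe set also reads the constructs was not tested. These likenesses are descriptions over 10 arrays in 3 groups, in which any gene of similar group means comes close.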

How the data were processed

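Expression was measured on 10 Affymetrix arrays, 1 per sample, grouped by the sample titles. RMA summarised each probe set, per the submitters' processing notes (version not stated), and the deposited table was taken as log2 intensities. No source names the log base: the highest value, 12.77, would be 350219 as a natural log, above the 65535 of a 16-bit scanner, against 6967 in base 2. RMA forces the arrays to a common distribution, which hides differences in total RNA, and precision rests on the number of arrays. From 45101 probe sets the tests left out 64 controls, 932 with several gene symbols and 9160 with no listed gene. Gene identifiers gave current symbols (GRCm38.p6).

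A single limma 3.58.1 model (R 4.3.3, lmFit then eBayes) was fitted to the arrays of all 3 groups (7 residual and 7.53 prior degrees of freedom), which was tested on simulated data. The members, lists and alternatives were chosen with earlier results of these data known. Up to 6 genes per marker or partner list were named, those called with AML1/ETO whose groups did not overlap, by size, and all neighbours that passed. Flt3 was named beside these because it fell. Promoters are from RefSeq, and all 8 members matched.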

Additional observations from a re-analysis of the deposited data

Results flagged for a closer look

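Gimap6 on W692A replicate 1 read 4.92, above 4.36 to 4.45 on the other W692A arrays, a gap large against the range of the group by Dixon's criterion. All 11 Gimap probe sets were examined in the 4 W692A arrays, and chance flags about 1 in 20 groups.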

How the results depend on the processing

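The 6 members called with AML1/ETO against GFP were called under all 21 alternatives, and Gimap3 joined them in 6. All refits reuse arrays on which the family was picked, so they show how calls move with processing and lend no further support. With W692A against GFP 6 or 7 members were called, except for the 4 with the Gapdh covariate. Gimap8 was called lower between the constructs under all 21, and the Gapdh covariate added Gimap4, giving 2. Leaving out each array in turn gave 6 to 7 members higher in both comparisons with GFP, 0 lower, and between the constructs 0 higher and 1 lower. Counts over all genes then ran from 4477 to 5319 with AML1/ETO, 1774 to 2615 with W692A, and 2943 to 3777 between the constructs. With the bound as a floor 1468 genes were called with W692A against GFP and 2485 between the constructs (2642 and 3765 otherwise), and with the Gapdh covariate 506 with W692A. The replicate number as a block left 6 members higher in both comparisons with GFP and 1 lower between the constructs (5272, 2344 and 3509 of all genes), and changed no member's call. Deviations of same-numbered arrays from their group means correlated at -0.100 to 0.333, above 0.1 for all 3 pairs of replicate 1 (0.186 to 0.333) and for 1 of the 6 pairs of replicates 2 and 3, so the numbers were not taken to pair the arrays.

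Uncalled differences between the constructs changed sign in places, and the cause was not tested. Array weights gave -0.003 for Gimap3, the Gapdh covariate -0.006 for Gimap3 and -0.094 for Gimap5, the spike-in covariate 0.096 for Gimap9, and the other probe set -0.158 for Gimap7. Gimap5 was at 0.000 with the bound as a floor. Without each array in turn Gimap3 ran from -0.131 to 0.188, Gimap5 from -0.072 to 0.190, Gimap6 from -0.549 to 0.001 and Gimap9 from -0.332 to 0.040. Signal over background limits Gimap3, Gimap5 and the GFP levels of Gimap4 and Gimap7.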
